A study of Rattus norvegicus with 12 samples.

Results

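Hearts of rats that had gone through a model of pulmonary hypertension and were then dosed with chrysin were compared with hearts of rats kept in normoxia, to see which transcripts still differed from control after dosing. The comparison takes 8 of the 12 libraries of the study, the 4 labelled Chrysin and the 4 labelled CTRL, and all 32623 genes of the deposited count table, of which 12304 passed a filter on low counts and were tested. The rats were male Sprague Dawley, given in the labels as 5 weeks old and 130 to 150 g. The CTRL course alone lasted 8 weeks, so that age cannot be the age at its end. Chrysin rats had been given SU-5416, which blocks the VEGF receptors, under the skin at 20 mg/kg, with 3 weeks at 10% oxygen and 2 weeks in normoxia, whose order the labels leave unclear. They then spent 3 weeks in normoxia with daily doses of the plant flavone chrysin (100 mg/kg). SU_HX rats went through the same course with vehicle in place of chrysin, and their 4 libraries are set beside the others where they bear on a value. CTRL rats spent 8 weeks in normoxia, and the labels name no SU-5416, vehicle or chrysin for them, so what SU-5416, hypoxia and chrysin each contributed cannot be told apart against CTRL. The labels give the tissue as heart without a region, and nothing in them says that the libraries stem from different rats. The p-values therefore measure the spread between these samples, which are called rats below after their numbers.

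SU-5416 with hypoxia narrows the small arteries of the lung, and the right ventricle then pumps against a raised pressure. A loaded ventricle typically makes natriuretic peptides and fetal sarcomere proteins, lays down matrix and burns less fat. Chrysin and other flavones are known as ligands of the aryl hydrocarbon receptor, a transcription factor that senses foreign compounds and switches on the cytochrome P450 genes of the Cyp1 family. SU-5416 is known as a ligand of the same receptor.

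Total counts were 3997306 to 6009798 per library in Chrysin and 4712077 to 5443100 in CTRL. Introns held 45.3 to 48.5% in Chrysin and 47.3 to 49.999% in CTRL of uniquely mapped nuclear-gene reads (Chrysin minus CTRL -1.75 percentage points, two-sided exact permutation p = 0.143) and mitochondrial genes 13.6 to 21.8% in Chrysin and 9.87 to 19.9% in CTRL of the counts (difference 0.0604, p = 0.971); with 4 against 4 that test cannot go below 0.0286. Cardiac myocyte identity genes, such as the cardiac troponins and myosins, summed to 47449 to 94361 CPM (counts scaled to the TMM-corrected library total) in Chrysin and to 89433 to 95528 CPM in CTRL, so these defining markers of heart were present in every library. Chrysin rat 3 stood apart from the other 3 Chrysin rats. It had the fewest counts and the fewest genes detected (14787, against 15440 to 15476 in the others) and lay near the CTRL rats for most gene groups. Most counts of calls and several gene values are therefore also given without it. SU_HX rat 1, whose spread enters every test of the shared fit, stood apart as well, with introns at 63.4% (42.6 to 49.97% in the other 3 SU_HX rats) and mitochondrial genes at 26.2% (16.96 to 20.2%). Its part in the results was not tested beyond the fits without it. In these whole-tissue samples, fewer cells of a type and less RNA per cell cannot be told apart.

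Of the 12304 genes, 1069 (8.69%) differed between Chrysin and CTRL by edgeR's quasi-likelihood test at an adjusted p under 0.05, the threshold for every call here. Of these, 581 rose (4.72%) and 488 fell (3.97%). By at least 2-fold, 386 rose and 226 fell, and the median log2 change of all genes was 0.00. The groups' values did not overlap in 915 of the 1069, while over all genes the Chrysin values lay wholly above CTRL in 10.6% and wholly below in 12.8%. The count moved with the libraries. Without Chrysin rat 3 it was 2092 (16.7%; 1096 rose, 8.77%, and 996 fell, 7.97%), and 1059 of the 1069 were among them. It was also 2092 without SU_HX rat 1 (16.9%; 1061 rose, 8.56%, and 1031 fell, 8.32%), which shares the fit, and 2599 (21.9%) with only the Chrysin and CTRL libraries in the fit. Without CTRL rat 1, 2, 3 or 4 it was 323, 365, 330 and 311 (2.59, 2.93, 2.64 and 2.5% of the genes tested; 1.43, 1.73, 1.44 and 1.47% rose and 1.16, 1.2, 1.2 and 1.03% fell). Without Chrysin rat 1, 2 or 4 it was 354, 321 and 303 (2.84, 2.58 and 2.44%; 1.78, 1.61 and 1.5% rose and 1.06, 0.963 and 0.933% fell). The 4 CTRL rats and Chrysin rats 1, 2 and 4 are called the 7 below, and a call is said to hold where it was made in all 12 fits that leave out 1 library. Without SU_HX rat 2, 3 or 4 the count was 1349, 1149 and 890 (10.8, 9.24 and 7.13%; 5.47, 5.45 and 3.98% rose and 5.35, 3.8 and 3.15% fell). Over all 12 such fits 235 genes held, 145 higher and 90 lower in Chrysin.

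**Figure D1:**
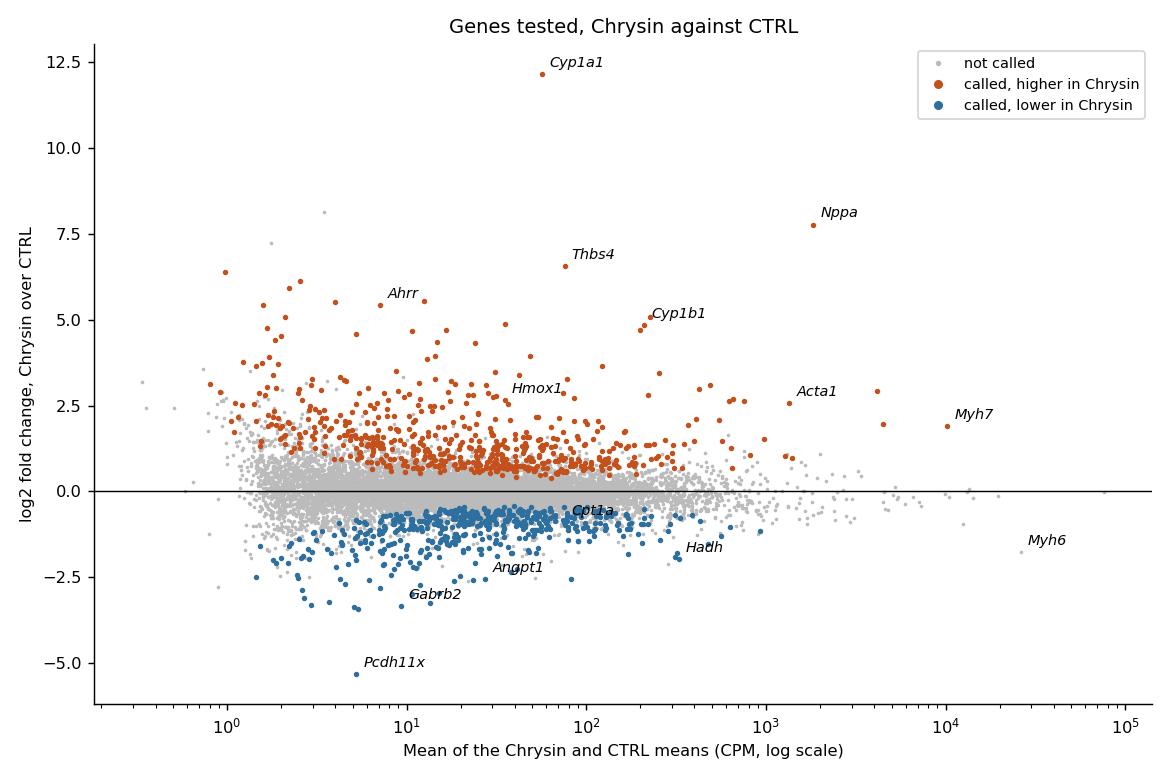
Log2 fold change of Chrysin over CTRL (vertical axis) against the mean expression of both groups (horizontal axis, CPM on a log scale) for the 12304 genes tested, with the 581 genes that rose and the 488 that fell in colour. Cyp1a1 and Nppa lie highest among the labelled genes and Pcdh11x lowest, and Myh6, at -1.77 log2, was not called.

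Some targets of the aryl hydrocarbon receptor rose, and Cyp1a1, Cyp1b1 and Ahrr lay above every CTRL rat in all 4 Chrysin rats. Cyp1a1, its classic target (on chromosome 8, 7 exons, bases 62472095 to 62478147, ENSRNOG00000019500, in the files' coordinates, whose build is not given in the sources used here), had 89.2, 77.01, 175 and 110.5 CPM in Chrysin rats 1 to 4, and 0 counts in all 4 CTRL rats. That is at least 765-fold higher than the 3 counts over all CTRL libraries that stand for a count of 0 (adjusted p = 0.00437; 0.000565 without Chrysin rat 3), and every Chrysin rat, rat 3 included, carried the transcript. Cyp1b1, a related monooxygenase (on chromosome 6, 9 exons, bases 2307808 to 2316722, ENSRNOG00000040287), had 515, 353, 176 and 573 CPM in Chrysin rats 1 to 4, against 16.4, 17.3, 12.9 and 10.1 CPM in CTRL rats 1 to 4. It rose 28.6-fold (log2 4.84, SE 0.40, adjusted p = 0.000195), with the lowest Chrysin value far above the highest CTRL value. The repressor of the receptor, Ahrr (on chromosome 1, 11 exons, bases 31603297 to 31698329, ENSRNOG00000014721), had 14.8, 13.6, 10.2 and 17.2 CPM in Chrysin rats 1 to 4, against 0.444, 0.576, 0.214 and 0 CPM in CTRL rats 1 to 4, with no overlap (log2 5.42, SE 0.71, adjusted p = 0.00437). Of 9 tested genes of the receptor and its targets, out of 11 listed, 4 rose and 0 fell (median log2 0.78). Over all genes, 4.72% rose and 3.97% fell. The last of the 4 was the quinone reductase Nqo1 (log2 0.78, adjusted p = 0.0258). The count was 5 without Chrysin rat 3. The receptor gene Ahr itself averaged 29.2 ± 4.01 CPM in Chrysin and 25.7 ± 5.11 CPM in CTRL (SD, n = 4 each; adjusted p = 0.684). Its partner Arnt differed by -0.20 log2 (adjusted p = 0.408) and Tiparp, another target, by -0.04 (adjusted p = 0.92), and none of the 3 was called. SU_HX hearts, which had no chrysin, had 268, 40.9, 78.2 and 42.5 CPM in SU_HX rats 1 to 4 for Cyp1a1 and averaged 413 ± 139 CPM for Cyp1b1. Chrysin over SU_HX the fitted log2 difference was 0.07 (SE 0.56) for Cyp1a1, -0.03 (SE 0.34) for Cyp1b1 and 0.22 (SE 0.44) for Ahrr, and none was called. The calls of Cyp1a1, Cyp1b1 and Ahrr held. That of Nqo1 was lost without CTRL rat 1, 2 or 4 or Chrysin rat 1, 2 or 4 (adjusted p from 0.0545 to 0.0846).

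The receptor binds DNA at sites with the core GCGTG, so the 250 bases before the start of these genes are shown for Cyp1b1 and Ahrr, the members with a promoter in the RefSeq table (GRCr8, gene strand, 5′ to 3′) that changed most; capitals mark GCGTG on either strand.
Cyp1b1, chr6:21094315-21094564, plus strand: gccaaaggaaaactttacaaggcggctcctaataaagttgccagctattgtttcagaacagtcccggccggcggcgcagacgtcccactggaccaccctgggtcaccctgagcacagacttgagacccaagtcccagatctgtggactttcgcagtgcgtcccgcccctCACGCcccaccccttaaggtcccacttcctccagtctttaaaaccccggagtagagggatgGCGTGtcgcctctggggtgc
Ahrr, chr1:30821969-30822218, plus strand: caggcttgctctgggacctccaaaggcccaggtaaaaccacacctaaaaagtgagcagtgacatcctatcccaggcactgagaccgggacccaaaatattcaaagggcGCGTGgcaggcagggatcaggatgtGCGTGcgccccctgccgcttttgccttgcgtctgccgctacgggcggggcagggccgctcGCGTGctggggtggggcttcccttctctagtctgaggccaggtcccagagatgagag
The core occurs in 2 places before Cyp1b1 and in 3 before Ahrr. It occurs at least once in 27.2% of the 27457 promoters of the table and in 45.3% of those of the tested genes, so a match is common and describes only the letters of this window. Of the 5 genes looked up, 4 had an entry, and Nqo1 and Tiparp each had 1 match.

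Antioxidant genes changed in part (over all genes, 4.72% rose and 3.97% fell, and 8.77% and 7.97% without Chrysin rat 3). Gclc, the catalytic subunit of the enzyme that starts glutathione synthesis, had 53.1, 52.2, 27.2 and 50.5 CPM in Chrysin rats 1 to 4, against 16.7, 17.6, 17.6 and 14.9 CPM in CTRL rats 1 to 4. Every Chrysin value lay above every CTRL value (log2 1.46, SE 0.24, adjusted p = 0.00643). Hmox1, heme oxygenase, had 71.6, 76.7, 14.3 and 80.6 CPM in Chrysin rats 1 to 4, against 5.77, 7.29, 14.2 and 11.2 CPM in CTRL rats 1 to 4. Level with the highest CTRL rat was Chrysin rat 3, while the other 3 were far above (log2 2.67, adjusted p = 0.00765; 2.996 and 0.000121 without it). Of 33 tested genes of NRF2, glutathione and antioxidant enzymes, 6 rose and 3 fell (median log2 0.14), and without Chrysin rat 3, 9 and 4. Between 2 and 3 rose and 1 fell across the 7. Those that fell were the microsomal glutathione transferase Mgst1 (log2 -0.93, adjusted p = 0.0103), its relative Gsta4 (-1.25, 0.0247) and Keap1, which marks NRF2 for degradation (-0.504, 0.0381). The gene of NRF2, Nfe2l2, had a log2 change of 0.497 and was not called (adjusted p = 0.0728), but was without Chrysin rat 3 (0.0105). The calls of Gclc, Hmox1 and Mgst1 held. Those of Gsta4 and Keap1 were lost without any 1 of the 7 (adjusted p from 0.0521 to 0.128).

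Genes of the cardiac stress response were higher in Chrysin than in CTRL hearts (over all genes, 4.72% rose and 3.97% fell). Nppa, atrial natriuretic peptide (on chromosome 5, 3 exons, bases 164808323 to 164809705, ENSRNOG00000008176), had 7084, 2941, 119.9 and 4479 CPM in Chrysin rats 1 to 4, against 6.22, 26.5, 21.2 and 12.9 CPM in CTRL rats 1 to 4. Chrysin rat 3 was above all CTRL rats but far below the other 3 (log2 7.77, SE 1.07, adjusted p = 0.00437; log2 8.19, adjusted p = 3.93e-05 without it). Nppb, the B-type peptide (on chromosome 5, 3 exons, bases 164796185 to 164797531, ENSRNOG00000008141), had 602, 530.1, 194 and 536 CPM in Chrysin rats 1 to 4, against 22.4, 60.8, 48.03 and 38.2 CPM in CTRL rats 1 to 4, with no overlap. It rose 10.98-fold (SE 0.49 on the log2 scale, adjusted p = 0.00437). Acta1, skeletal alpha-actin, a fetal form of the sarcomere (on chromosome 19, 7 exons, bases 56674074 to 56677084, ENSRNOG00000017786), had 1528, 1909, 2358 and 3411 CPM in Chrysin rats 1 to 4, against 505, 213, 459 and 375 CPM in CTRL rats 1 to 4. Here Chrysin rat 3 was among the high rats, and the gene rose 5.93-fold (SE 0.42 on the log2 scale, adjusted p = 0.00643). Myh7, which codes for beta-myosin, the slow form, had 20919, 19562, 8779 and 15031 CPM in Chrysin rats 1 to 4, against 5317, 4812, 2515 and 4644 CPM in CTRL rats 1 to 4 (log2 1.89, adjusted p = 0.0136). Of 31 tested stress genes, out of 36 listed, 14 rose and 0 fell (median log2 1.003), and without Chrysin rat 3, 21 rose and 0 fell. Between 8 and 10 rose across the 7. Others that rose were the sarcomeric ankyrin protein Ankrd23 (log2 3.93, adjusted p = 0.00612) and its relative Ankrd1, a stretch-responsive cofactor (1.97, 0.00998). The calls of Nppa, Nppb, Acta1, Ankrd23 and Ankrd1 held and that of Myh7 was lost without CTRL rat 3 (adjusted p = 0.0531). Only 74.96% of the exon reads of Myh7 mapped to it alone, so how reads were divided with its neighbour Myh6 is uncertain.

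Factors of the TEAD family, which act on fetal muscle genes, bind the letters CATTCC, and the windows of the B-type peptide and of skeletal actin are shown with that motif in capitals on either strand (RefSeq, GRCr8, gene strand, 5′ to 3′).
Nppb, chr5:163699758-163700007, plus strand: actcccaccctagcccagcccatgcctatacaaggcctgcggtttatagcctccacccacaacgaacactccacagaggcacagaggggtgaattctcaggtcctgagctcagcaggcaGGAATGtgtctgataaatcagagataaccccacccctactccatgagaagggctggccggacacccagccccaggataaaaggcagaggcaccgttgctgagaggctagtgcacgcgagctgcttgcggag
Acta1, chr19:68784195-68784444, minus strand: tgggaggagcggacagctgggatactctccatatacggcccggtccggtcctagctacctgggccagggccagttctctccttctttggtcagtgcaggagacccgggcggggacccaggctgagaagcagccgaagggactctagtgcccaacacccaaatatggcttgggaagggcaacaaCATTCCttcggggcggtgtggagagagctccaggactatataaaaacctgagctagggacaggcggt
Each holds 1 match, as does Ankrd23, and Nppa, Myh7 and Xirp2 hold 0 in this window. The motif occurs in 11.8% of all promoters of the table and in 9.83% of those of tested genes. Of the 7 stress genes looked up, 6 had an entry.

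**Figure D2:**
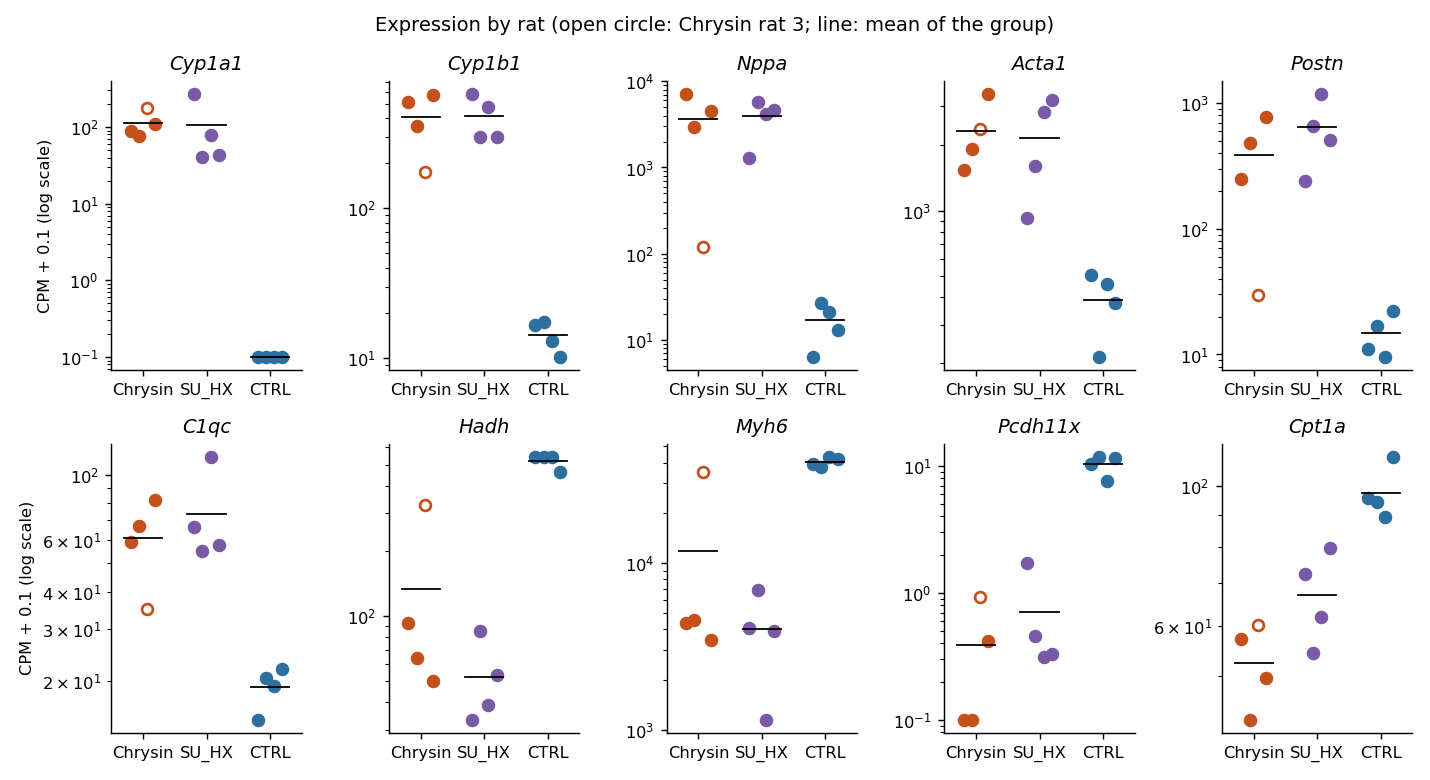
Expression by rat of 10 genes in Chrysin, SU_HX and CTRL (vertical axis, CPM plus 0.1 on a log scale; points are rats, lines are group means, and the open circle is Chrysin rat 3). Cyp1a1 and Acta1 in Chrysin rat 3 lie with the other Chrysin rats, whereas its Myh6 and Hadh lie nearer to the CTRL rats.

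Genes of adult contraction, calcium handling and conduction gave fewer calls than the stress genes. In the calcium and ion channel lists more genes fell than rose (over all genes, 4.72% rose and 3.97% fell). Myh6, the fast alpha-myosin heavy chain (on chromosome 15, 38 exons, bases 33605654 to 33629699, ENSRNOG00000025757), had 4393, 4550.1, 35113 and 3447 CPM in Chrysin rats 1 to 4, against 39309.5, 37557, 43227 and 41906 CPM in CTRL rats 1 to 4. Chrysin rat 3 lay just under the CTRL rats and the other 3 far below, and the gene was not called with all libraries (log2 -1.77, SE 0.73, adjusted p = 0.143) but was without that rat (log2 -3.28, adjusted p = 0.00135). Atp2a2, the calcium pump of the sarcoplasmic reticulum, had 7835, 7432, 13044 and 5634 CPM in Chrysin rats 1 to 4, against 16139.7, 16142, 17276 and 16099 CPM in CTRL rats 1 to 4. The groups did not overlap, yet the gene was called neither with all libraries (log2 -0.95, adjusted p = 0.16) nor without Chrysin rat 3 (-1.22, 0.0727). It was called with only the Chrysin and CTRL libraries in the fit, by limma-voom with quality weights, and without Chrysin rat 3 and SU_HX rat 1 together (0.00183 to 0.0246). Cacna1g, a T-type calcium channel of the fetal heart and of pacemaker cells, had 205, 185, 27.7 and 176 CPM in Chrysin rats 1 to 4, against 20.2, 25.1, 26.8 and 17.9 CPM in CTRL rats 1 to 4. Chrysin rats 1, 2 and 4 were high and rat 3 was just above the highest CTRL rat (log2 2.72, adjusted p = 0.0095). Of 23 tested calcium genes, 1, Cacna1g, rose and 3 fell (median log2 -0.35): S100a1, a calcium sensor (log2 -1.49, adjusted p = 0.00956), the L-type channel Cacna1c (-0.79, 0.0467) and triadin, Trdn (-1.08, 0.0491). Across the 7 and without SU_HX rat 4, 1 fell, and 7 without Chrysin rat 3. Of 26 ion channel and gap junction genes, 1 rose and 6 fell (median log2 -0.42), and 1 and 7 without Chrysin rat 3. Across the 7, between 0 and 2 fell. The riser was Kcne1, a potassium channel subunit, with 11.5, 9.42, 0.823 and 9.54 CPM in Chrysin rats 1 to 4, against 0.222, 0, 0 and 0.373 CPM in CTRL rats 1 to 4 (log2 5.51, adjusted p = 0.00913), with Chrysin rat 3 again nearest to CTRL. Among those that fell were the inward rectifier Kcnj12 (log2 -1.72, adjusted p = 0.0145), its acetylcholine-gated relative Kcnj3 (-1.78, 0.0152) and the sodium channel subunit Scn4b (-2.54, 0.0346). Of 27 sarcomere genes, 1 rose, filamin C, Flnc (0.98, 0.0366), and 1 fell, the M-band protein Myom3 (-1.68, 0.0243). The counts were 3 and 4 without Chrysin rat 3, without SU_HX rat 1, 3 and 1, and across the 7, 0 and 0. The calls of Cacna1g, Kcne1 and S100a1 held. Kcnj12 was lost without Chrysin rat 2 (adjusted p = 0.0529) and Kcnj3 without CTRL rat 3 or Chrysin rat 1, 2 or 4 (0.0516 to 0.0605). Scn4b, Flnc and Myom3 were lost without any 1 of the 7 (0.0539 to 0.118), and Cacna1c and Trdn also without SU_HX rat 4 (0.0616 to 0.144).

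Several matrix genes were far above CTRL in 3 of the 4 Chrysin rats. Over all genes, 4.72% rose and 3.97% fell, and 8.77% and 7.97% without Chrysin rat 3. Thbs4, a thrombospondin of the matrix (on chromosome 2, 25 exons, bases 22343727 to 22385855, ENSRNOG00000012471), had 141, 172, 3.29 and 283 CPM in Chrysin rats 1 to 4, against 0, 2.3, 2.57 and 1.31 CPM in CTRL rats 1 to 4. The value of Chrysin rat 3 was barely above the highest CTRL rat, and the rest were far above (log2 6.56, SE 1.04, adjusted p = 0.00609; 6.98 and 3.93e-05 without it). Postn, periostin, a protein of activated fibroblasts (on chromosome 2, 24 exons, bases 143656793 to 143688087, ENSRNOG00000012660), had 248, 484, 29.4 and 778 CPM in Chrysin rats 1 to 4, against 10.9, 16.9, 9.44 and 22.004 CPM in CTRL rats 1 to 4. It showed the same pattern (log2 4.69, SE 0.81, adjusted p = 0.00757; 5.09 and 0.000201 without Chrysin rat 3). Ltbp2, which binds latent TGF-beta and fibrillin microfibrils, had 276, 512, 21.1 and 949 CPM in Chrysin rats 1 to 4, against 4.89, 18.8, 17.8 and 10.3 CPM in CTRL rats 1 to 4 (log2 5.08, adjusted p = 0.00847), again with rat 3 lowest. The main fibrillar collagens were not called. Col1a1 had 1812, 2014, 1044 and 3465 CPM in Chrysin rats 1 to 4, against 912, 1176, 1054 and 1748 CPM in CTRL rats 1 to 4, so the groups overlapped (log2 0.77, SE 0.45, adjusted p = 0.302; 0.158 without Chrysin rat 3). Col3a1 averaged 3908 ± 1083 CPM in Chrysin and 2596 ± 616 CPM in CTRL (SD, n = 4 each; adjusted p = 0.411). Of 57 tested genes of fibrillar collagen and matrix proteins, out of 60 listed, 18 rose and 1 fell (median log2 0.84). Without Chrysin rat 3, 28 rose and 1 fell (median 1.01), and across the 7 between 5 and 9 rose and 0 fell. The exception was the microfibril protein Mfap2 (log2 -1.46, adjusted p = 0.0345). Of 20 genes that process and cross-link collagen, 6 rose and 0 fell, led by the lysyl oxidases Loxl1 (log2 1.75, adjusted p = 0.0188) and Loxl2 (1.36, 0.0219) and the transglutaminase Tgm2 (1.46, 0.0189). In this list 9 rose without Chrysin rat 3, and between 0 and 3 across the 7. The calls of Thbs4, Postn and Ltbp2 held. Mfap2 was lost without any 1 of the 7 (0.0573 to 0.119). Loxl1 and Loxl2 were lost without any of them but Chrysin rat 1 (0.0557 to 0.076), and Tgm2 without any of them but Chrysin rat 4 (0.0554 to 0.0649).

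Of 29 tested proteases of the matrix and their inhibitors, 6 rose and 3 fell, and without Chrysin rat 3, 11 and 4. Across the 7, between 4 and 5 rose and between 1 and 2 fell. Over all genes, 4.72% rose and 3.97% fell, and 8.77% and 7.97% without Chrysin rat 3. Serpine2, a serine protease inhibitor also called protease nexin, averaged 189 ± 88.7 CPM in Chrysin and 45.1 ± 3.36 CPM in CTRL (SD, n = 4 each), a 4.19-fold rise (adjusted p = 0.00612), and Timp1, an inhibitor of metalloproteinases, rose 7.16-fold (adjusted p = 0.0121; 76.2% of its exon reads mapped to it alone). Ctsl, the lysosomal protease cathepsin L, rose 2.01-fold (adjusted p = 0.0121). Adamts15, a protease of proteoglycans, went the other way in all 4 rats, with 22.3, 24.5, 18.4 and 21.8 CPM in Chrysin rats 1 to 4, against 61.5, 82.7, 61.1 and 91.001 CPM in CTRL rats 1 to 4 (log2 -1.77, adjusted p = 0.00765). The lowest of them was Chrysin rat 3. The other falls were Adam19 (log2 -0.72, adjusted p = 0.0266) and Adamts12 (-0.73, 0.0278), both metalloproteinases. The calls of Serpine2, Timp1, Ctsl and Adamts15 held. Adam19 was lost without any of the 7 but CTRL rat 3 (0.0534 to 0.106) and Adamts12 without CTRL rat 1, 3 or 4 or Chrysin rat 1 or 2 (0.065 to 0.0968). Of 15 basement membrane genes 2, the laminins Lama5 (log2 1.36, adjusted p = 0.00998) and Lamc1 (1.04, 0.0432), rose, while 3 rose without Chrysin rat 3, 4 without SU_HX rat 1 and 1 across the 7, and Lamc1 was lost without any 1 of the 7 or SU_HX rat 4 (0.0584 to 0.146).

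Ligands of the TGF-beta family rose while a co-receptor fell. Over all genes, 4.72% rose and 3.97% fell, and 8.77% and 7.97% without Chrysin rat 3. Tgfb2 (on chromosome 13, 10 exons, bases 105039853 to 105141030, ENSRNOG00000002418), which codes for TGF-beta 2, had 154, 147, 51.9 and 215 CPM in Chrysin rats 1 to 4, against 14.2, 17.1, 13.1 and 13.99 CPM in CTRL rats 1 to 4, a 9.74-fold rise with no overlap (SE 0.46 on the log2 scale, adjusted p = 0.00437). Inhbb, the beta B subunit of activins, had 48.3, 25.4, 4.94 and 28.8 CPM in Chrysin rats 1 to 4, against 2.89, 1.15, 1.72 and 1.31 CPM in CTRL rats 1 to 4 (log2 3.95, adjusted p = 0.00437). In both genes Chrysin rat 3 was lowest of its group and above CTRL. Tgfb1 rose by 0.89 log2 (adjusted p = 0.00998), and Tgfbr3, the co-receptor betaglycan, had 110.4, 90.6, 113 and 104 CPM in Chrysin rats 1 to 4, against 154, 169, 178 and 181 CPM in CTRL rats 1 to 4, lower in all 4 rats (log2 -0.71, SE 0.13, adjusted p = 0.00987). Smad3, a transducer of the receptors, also fell (log2 -0.55, adjusted p = 0.0243). Of 26 tested genes of the pathway, 11 rose and 2 fell (median log2 0.62), and 13 and 2 without Chrysin rat 3. Across the 7, between 4 and 5 rose. Of 16 genes of the BMP branch, 3 rose: the ligands Bmp4 (log2 1.39, adjusted p = 0.00908) and Gdf6 (4.40, 0.0426) and the inhibitor Id4 (0.95, 0.0358). In the branch 5 rose and 1 fell without Chrysin rat 3, 4 and 1 without SU_HX rat 1, and 1 rose across the 7. Of 21 fibroblast markers, 6 rose and 0 fell, among them S100a4 (log2 2.26, adjusted p = 0.00998), the homeobox factor Meox1 (1.80, 0.0124) and the surface protease Fap (1.57, 0.0152). Of the markers 9 rose without Chrysin rat 3, 10 without SU_HX rat 3, and between 3 and 4 across the 7. Of 20 smooth muscle and myofibroblast markers, 0 rose and 0 fell by edgeR (median log2 0.11), or 1 and 1 without SU_HX rat 1, with 4 at an unadjusted p under 0.05, 0 called by limma-voom and 2 by DESeq2. The calls of Tgfb2, Inhbb, Tgfb1, Tgfbr3, Bmp4, S100a4 and Meox1 held. Fap was lost without CTRL rat 2 or 3 (0.0522 to 0.0537). Smad3 was lost without any of the 7 but Chrysin rat 2 (0.0554 to 0.104), Id4 without any 1 of the 7 (0.0545 to 0.121) and Gdf6 also without SU_HX rat 4 (0.0562 to 0.171).

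Complement and macrophage genes were higher in Chrysin hearts. Over all genes, 4.72% rose and 3.97% fell, and 8.77% and 7.97% without Chrysin rat 3. C1qc, a chain of the complement starter C1q (on chromosome 5, 3 exons, bases 155255005 to 155258392, ENSRNOG00000012804), had 58.9, 66.9, 34.8 and 82.2 CPM in Chrysin rats 1 to 4, against 14.7, 20.3, 19.1 and 21.8 CPM in CTRL rats 1 to 4, a 3.2-fold rise without overlap (SE 0.28 on the log2 scale, adjusted p = 0.00669). Its partner chain C1qb rose 3.58-fold (adjusted p = 0.0102) and C5ar1, the receptor of the complement peptide C5a, 2.7-fold (adjusted p = 0.00773). Of 23 tested complement genes, 10 rose and 0 fell (median log2 1.10), and without Chrysin rat 3, 15 rose. Between 3 and 5 rose across the 7. Gpnmb, a glycoprotein of lipid-laden and repair macrophages, had 59.4, 55.9, 14.3 and 88.4 CPM in Chrysin rats 1 to 4, against 8.88, 8.06, 7.08 and 8.02 CPM in CTRL rats 1 to 4 (log2 2.77, SE 0.43, adjusted p = 0.0059). Chrysin rat 3 was the lowest of the 4 and above every CTRL rat. Of 23 markers of monocytes and macrophages, 11 rose and 0 fell (median log2 1.35), and 18 without Chrysin rat 3. Between 5 and 7 rose across the 7. They included Ms4a7 (log2 2.38, adjusted p = 0.00609), Aif1, the marker IBA1 (1.505, 0.0095), and Lgals3, galectin-3 (1.66, 0.00998). Their growth factors Csf1 and Il34, ligands of 1 shared receptor, rose by 0.98 (adjusted p = 0.00987) and 0.85 (0.0207), and the chemokine Cxcl16 by 1.64 (0.0188). With all libraries these were the only 3 called of 22 cytokine and chemokine genes, and 7 rose and 1 fell without Chrysin rat 3, 5 rose without SU_HX rat 1 and between 1 and 2 across the 7. Of 8 tested NADPH oxidase genes, 3 rose, among them the phagocyte subunits Ncf4 (log2 1.90, adjusted p = 0.0095) and Cybb (1.58, 0.0168), and 1 fell, Ncf1 (-0.97, 0.0235; 69.4% of its exon reads mapped to it alone), against 5 and 1 without Chrysin rat 3 and between 1 and 2 and 0 across the 7. Lymphoid markers gave other counts: of 11 T and NK cell genes, 1 rose, Cd4 (log2 1.08, adjusted p = 0.0313), which rat macrophages also carry, and 3 fell, the interleukin 2 receptor chain Il2rb (-1.32, 0.0263) and the NK receptors Klrd1 (-1.40, 0.0400) and Ncr1 (-2.07, 0.0455). Of this list 5 fell without Chrysin rat 3 and between 0 and 3 across the 7. The list mean of CTRL rat 3, -0.58 log2 from the CTRL mean, lay among those of the Chrysin rats (-0.86 to -0.45). The other CTRL rats lay at 0.14 to 0.24. Of the 11 genes, 1 lay wholly below CTRL in Chrysin, against 12.8% of all genes. The calls of C1qc, C1qb, C5ar1, Gpnmb, Ms4a7, Aif1, Lgals3, Csf1 and Ncf4 held. Those of Il34, Ncf1 and Cd4 were lost without any 1 of the 7 (0.0537 to 0.102). The calls of Cxcl16, Cybb, Il2rb, Klrd1 and Ncr1 were each lost in 5 to 7 of the 12 fits (0.0528 to 0.143), in all cases with 1 of the 7 or SU_HX rat 4 left out.

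**Figure D3:**
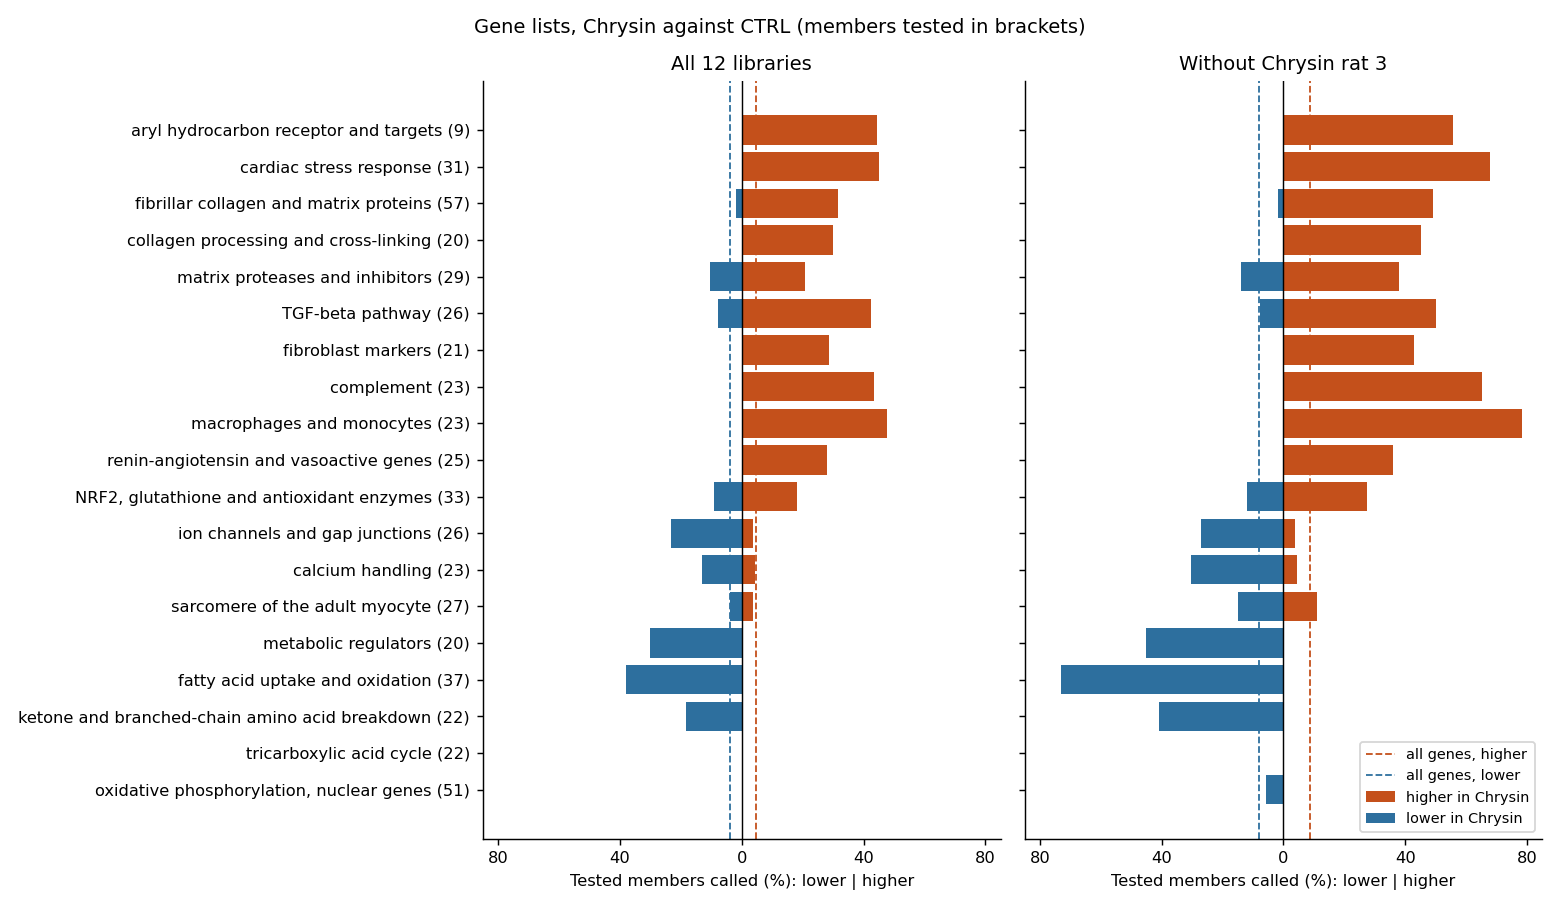
Percent of the tested members of each gene list that were called lower (left of 0) or higher (right of 0) in Chrysin than in CTRL, with all libraries and without Chrysin rat 3; dashed lines give the same percent over all genes (3.97% and 4.72%, and 7.97% and 8.77% without that rat). Stress, matrix, complement and macrophage lists lie to the right and fatty acid oxidation to the left in both panels.

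Vessel markers gave 3 rises and 1 fall in 32 (over all genes, 4.72% rose and 3.97% fell). Vasoactive genes rose more often than they fell. Angpt1, the ligand that steadies vessels through the receptor Tie2 (on chromosome 7, 9 exons, bases 81342280 to 81592206, ENSRNOG00000005854), had 5.61, 5.12, 13.99 and 7.95 CPM in Chrysin rats 1 to 4, against 55.97, 40.1, 47.4 and 42.5 CPM in CTRL rats 1 to 4. All 4 Chrysin rats were far below CTRL (log2 -2.55, SE 0.43, adjusted p = 0.00669). The endothelial adhesion molecule Sele rose 4.07-fold (adjusted p = 0.0059), Flt4, VEGF receptor 3 of lymphatic vessels, 2.03-fold (adjusted p = 0.0108) and the TGF-beta co-receptor Eng 1.83-fold (adjusted p = 0.0211). Those were the 3 risers, beside the fall of Angpt1, among 32 endothelial and lymphatic markers, of which 7 rose and 3 fell without Chrysin rat 3. Of 10 genes of the VEGF pathway, Flt4 was the 1 called, and 3 rose without Chrysin rat 3 or SU_HX rat 1, 2 without SU_HX rat 3. Ednrb, the endothelin B receptor, had 28.7, 22.97, 17.8 and 27.02 CPM in Chrysin rats 1 to 4, against 7.77, 8.63, 7.29 and 10.1 CPM in CTRL rats 1 to 4, with no overlap (log2 1.52, SE 0.21, adjusted p = 0.00437); 52.8% of its exon reads mapped to it alone. Ptgis, which makes prostacyclin, a dilator, rose 2.41-fold (adjusted p = 0.00715) and Ace, angiotensin-converting enzyme, 2.63-fold (adjusted p = 0.0363). Of 25 tested genes of the renin-angiotensin system and other vasoactive factors, 7 rose and 0 fell (median log2 0.50), and 9 rose without Chrysin rat 3, 9 (with 2 falls) without SU_HX rat 1, but 2 across the 7. On the adrenergic side, Pde4a, a phosphodiesterase that breaks down cyclic AMP, had 15.2, 13.1, 32.1 and 13.03 CPM in Chrysin rats 1 to 4, against 55.3, 55.8, 55.8 and 54.6 CPM in CTRL rats 1 to 4, nearly uniform in CTRL and lower in every Chrysin rat (log2 -1.62, adjusted p = 0.00609). Rgs6, which shortens signals of the muscarinic receptor, fell (log2 -1.16, adjusted p = 0.00908), as did Pde3a (-0.92, 0.0189) and the cyclase Adcy6 (-0.96, 0.0216), while the receptor kinase Grk5 rose (1.002, 0.0124), 1 up and 4 down of 26. Without Chrysin rat 3 these numbers were 2 and 8, without SU_HX rat 1, 2 and 7, without SU_HX rat 2, 1 and 9, and across the 7, 1 up and 2 to 3 down. The calls of Angpt1, Sele, Flt4, Ednrb, Ptgis, Pde4a, Rgs6 and Grk5 held. Those of Eng, Ace and Pde3a were lost without any 1 of the 7 (0.0502 to 0.123) and Adcy6 without any of them but CTRL rat 1 (0.0511 to 0.0745).

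Genes of fatty acid use were lower in Chrysin than in CTRL hearts (over all genes, 4.72% rose and 3.97% fell). Cpt1a, a carnitine palmitoyltransferase that lets long fatty acids into mitochondria (on chromosome 1, 19 exons, bases 218569510 to 218629678, ENSRNOG00000014254), had 57.1, 42.5, 60.1 and 49.4 CPM in Chrysin rats 1 to 4, against 95.5, 94.000, 89.2 and 111 CPM in CTRL rats 1 to 4. All 4 Chrysin rats were lower and close to one another (log2 -0.90, SE 0.15, adjusted p = 0.00715). Hadh, a dehydrogenase of beta-oxidation (on chromosome 2, 8 exons, bases 236353445 to 236395067, ENSRNOG00000010697), had 92.9, 64.1, 327 and 50.1 CPM in Chrysin rats 1 to 4, against 541, 540.02, 542 and 461 CPM in CTRL rats 1 to 4, and here rat 3 stood between the others and CTRL (log2 -1.97, SE 0.51, adjusted p = 0.0321; -2.90 and 0.000236 without it). Decr1, a reductase for unsaturated fatty acids, had 43.2, 41.97, 70.2 and 40.2 CPM in Chrysin rats 1 to 4, against 133, 146, 136 and 113 CPM in CTRL rats 1 to 4, with no overlap (log2 -1.44, adjusted p = 0.00998). The mitochondrial acyl-CoA thioesterase Acot2 changed by -1.44 log2 (adjusted p = 0.0122) and the carrier Ucp3 by -1.89 (0.0125). Of 37 tested genes of fatty acid uptake and oxidation, out of 40 listed, 14 fell and 0 rose (median log2 -0.88); all 37 fitted changes were below 0. Without Chrysin rat 3, 27 fell, without SU_HX rat 1, 25, and across the 7, between 4 and 5. Pdk4, a kinase that holds back glucose oxidation, averaged 49.9 ± 23.6 CPM in Chrysin and 111 ± 23.8 CPM in CTRL (SD, n = 4 each; log2 -1.16, adjusted p = 0.0518), which was not a call. It was called in 9 other settings (0.000389 to 0.0437), among them DESeq2, limma-voom and the fit without Chrysin rat 3 (0.0197). Among 20 regulators of metabolism 6 fell and 0 rose: the Kruppel-like factor Klf15, with 30.4, 38.8, 57.4 and 34.01 CPM in Chrysin rats 1 to 4, against 71.7, 82.3, 88.1 and 99.8 CPM in CTRL rats 1 to 4 (log2 -1.10, adjusted p = 0.00669), Prdm16 (-0.90, 0.00908), the thyroid hormone receptor Thra (-0.86, 0.0137) and Lpin1 (-1.14, 0.0163), a phosphatase that is also a coactivator, were the first 4 by p. Of the regulators 9 fell without Chrysin rat 3 and between 2 and 4 across the 7. Of 22 genes listed for the breakdown of branched-chain amino acids and ketone bodies, 0 rose and 4 fell. Those were the dehydrogenase Acadsb (-0.89, 0.0201), the aminotransferase Bcat2 (-1.10, 0.0268), Pccb (-0.93, 0.0317) and Bckdk (-0.92, 0.0494). Bckdk codes for a kinase that holds back branched-chain breakdown, so its fall is not that of a breakdown enzyme. Of this list 9 fell without Chrysin rat 3, 9 without SU_HX rat 1, 7 without SU_HX rat 2 and between 0 and 1 across the 7. The calls of Cpt1a, Decr1, Acot2, Ucp3, Klf15 and Prdm16 held. Hadh, Bcat2 and Pccb were lost without any 1 of the 7 (0.0626 to 0.12), and Bckdk also without SU_HX rat 3 or 4 (0.0543 to 0.162). Thra was lost without Chrysin rat 2 (0.0568), Lpin1 without CTRL rat 3 or Chrysin rat 1, 2 or 4 (0.0514 to 0.0639) and Acadsb without CTRL rat 1, 3 or 4 or Chrysin rat 1 or 4 (0.0615 to 0.0757).

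The respiratory chain and the tricarboxylic acid cycle gave no call with all libraries. Of 51 tested nuclear genes of oxidative phosphorylation, 0 rose and 0 fell by edgeR, 4 had an unadjusted p under 0.05, limma-voom called 0 and DESeq2 1 (over all genes, 8.41% and 14.1%). All 51 fitted changes were below 0 (median log2 -0.49, against 0.00 over all genes), and 3 fell without Chrysin rat 3, 2 without SU_HX rat 1, 33 without both and 18 with only the Chrysin and CTRL libraries in the fit. In Ndufs7, a subunit of complex I, values were 130.3, 128, 221 and 100.4 CPM in Chrysin rats 1 to 4, against 216, 238, 277 and 258 CPM in CTRL rats 1 to 4, and Chrysin rat 3 lay within the CTRL range (log2 -0.77, SE 0.26, adjusted p = 0.0771; 0.0106 without it). Of 22 genes of the cycle, 0 rose and 0 fell (median -0.45; 1 at an unadjusted p under 0.05, 0 by limma-voom and 0 by DESeq2), with 0 without Chrysin rat 3, 2 without SU_HX rat 1 and 13 without both. Sdhd, a subunit of succinate dehydrogenase, had a log2 change of -0.77 (adjusted p = 0.181). Among 24 genes of mitochondrial dynamics and carriers 4 fell and 0 rose, led by the coenzyme A carrier Slc25a42 (log2 -1.23, adjusted p = 0.00643), whose call held. Of that list 8 fell without Chrysin rat 3, 8 (with 1 rise) without SU_HX rat 1 and 1 across the 7. Glycolysis gave few calls in either direction (over all genes, 4.72% rose and 3.97% fell). Of 34 genes, 3 rose, the lactate transporter Slc16a3 (log2 2.18, adjusted p = 0.0243) and the phosphofructokinases Pfkp (1.74, 0.0256) and Pfkl (0.75, 0.0491). The 2 that fell were the glycogen phosphorylase Pygb (-1.15, 0.0225) and the muscle enolase Eno3 (-1.92, 0.0473). None of these 5 calls survived the loss of any 1 of the 7 (0.0527 to 0.154), and those of Pfkl and Eno3 were also lost without SU_HX rat 4, and that of Pfkl without SU_HX rat 3. Without Chrysin rat 3, 4 rose and 7 fell, without SU_HX rat 1, 6 and 5, and without SU_HX rat 2, 3 and 5; across the 7, 0 and 0.

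Outside these lists, the 12 largest rises and 12 largest falls with separate groups were taken by size. Besides genes already given, the rises were Alox15, a lipoxygenase that oxidises arachidonic and linoleic acid, with 168, 27.6, 13.99 and 64.05 CPM in Chrysin rats 1 to 4, against 2.89, 3.64, 0.643 and 2.05 CPM in CTRL rats 1 to 4 (log2 4.87, adjusted p = 0.00715), and Tceal7, a relative of a transcription elongation factor (5.53, 0.00565). Add2, beta-adducin of the membrane skeleton (5.07, 0.00956), the adhesion receptor Adgra1 (6.12, 0.0293) and the RELT-like protein Rell2 (4.75, 0.0189), completed them. The largest fall was in Pcdh11x, a protocadherin known from neurons (on chromosome X, 3 exons, bases 92596378 to 92691573, ENSRNOG00000030330), with 0, 0, 0.823 and 0.318 CPM in Chrysin rats 1 to 4, against 10.2, 11.7, 7.51 and 11.4 CPM in CTRL rats 1 to 4. Chrysin rats 1 and 2 had no counts, and rats 3 and 4 fewer than 1 CPM (log2 -5.32, SE 0.65, adjusted p = 0.00437). Gabrb2, a subunit of the GABA A receptor, had 0.825, 0.991, 5.49 and 0.318 CPM in Chrysin rats 1 to 4, against 22.4, 16.5, 12.2 and 16.04 CPM in CTRL rats 1 to 4 (log2 -3.34, adjusted p = 0.00806), with Chrysin rat 3 nearest to CTRL. The glucagon receptor Gcgr changed by -2.95 log2 (adjusted p = 0.00463), myocilin, Myoc, by -3.35 (0.0059), the mTOR inhibitor Ddit4l by -3.25 (0.0059) and the TNF receptor family member Tnfrsf19 by -3.30 (0.00806). Further falls were Atp6ap1l, a relative of a proton pump subunit (-3.42, 0.00892), the kelch protein Klhl33 (-2.72, 0.00612) and the calcium channel subunit Cacng6 (-2.81, 0.0129). The ADP-ribosyltransferase Art1 (-3.21, 0.0177), the unconventional myosin Myo16 (-2.998, 0.0417) and A930018M24Rik (-3.10, 0.0148) also fell. Held were Alox15, Tceal7, Add2, Pcdh11x, Gabrb2, Gcgr, Myoc, Ddit4l, Tnfrsf19, Atp6ap1l and Klhl33. Adgra1 and Myo16 were lost without any 1 of the 7 (0.0700 to 0.132) and Rell2 without any CTRL rat or Chrysin rat 4 (0.0515 to 0.0635). Art1 was lost without CTRL rat 1, 3 or 4 or Chrysin rat 1 or 2 (0.0511 to 0.0671), A930018M24Rik without CTRL rat 4 or Chrysin rat 1 or 2 (0.0537 to 0.0638) and Cacng6 without Chrysin rat 2 (0.0533).

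Markers of blood were higher than in CTRL both in Chrysin hearts and in SU_HX hearts, which had no chrysin. Over all genes, 4.72% rose and 3.97% fell in Chrysin, and 8.77% and 7.97% without Chrysin rat 3. Of 7 tested erythroid markers 6 rose and 0 fell, and between 1 and 6 across the 7. Their summed level was 7692, 1631, 1295 and 2395 CPM in Chrysin rats 1 to 4, against 291, 1082, 166 and 415 CPM in CTRL rats 1 to 4. All 4 Chrysin rats lay above the highest CTRL rat, and Chrysin rat 1 was highest. SU_HX rats 1 to 4 had 5047, 3828, 3529 and 3166 CPM. The median log2 change of the list was 2.70 in Chrysin over CTRL and 3.10 in SU_HX over CTRL. The globin gene Hbb had 2709, 588, 378 and 856 CPM in Chrysin rats 1 to 4, against 90.8, 392, 57.04 and 158 CPM in CTRL rats 1 to 4, with overlap of 1 rat from each group (log2 2.70, adjusted p = 0.0274). Of 7 tested lung epithelial and airway markers 0 rose and 0 fell by edgeR (3 at an unadjusted p under 0.05, 0 by limma-voom, 1 by DESeq2). With Chrysin rat 3 left out, 1 rose. All 7 fitted changes were above 0 (median log2 1.84), and the list mean was 0.32 to 1.79 log2 from the CTRL mean in the Chrysin rats and -0.30 to 0.48 in the CTRL rats, which overlapped. Their sum was 38.7 to 60.5 CPM in Chrysin and 36.9 to 47.6 CPM in CTRL, and the surfactant gene Sftpc was at 0 in Chrysin rat 4 and CTRL rats 1 and 3. Of 7 skeletal muscle markers 1 rose, the fast myosin-binding protein Mybpc2 (log2 3.15, adjusted p = 0.00612), and their sum, which holds the creatine kinase Ckm that heart also makes, was 800.2 to 1887 CPM in Chrysin and 2104 to 2635 CPM in CTRL. The median of their fitted changes ran the other way (log2 1.005, 5 of 7 above 0), and the list mean was 0.26 to 1.38 log2 from the CTRL mean in the Chrysin rats and -0.18 to 0.26 in the CTRL rats. Atrial markers, which include Nppa, summed to 2088 to 10541 CPM in Chrysin and to 1680 to 1758 CPM in CTRL. The median of their fitted changes was nevertheless log2 -0.29, with 6 of 12 above 0 and 6 below. Among the 12, 1 rose and 2 fell. These counts were 2 and 4 without Chrysin rat 3, 3 and 3 without SU_HX rat 1, and 1 and 0 to 1 across the 7. The part of blood, lung, skeletal muscle or atrial tissue in the changes above was not tested.

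Against SU_HX, the model without chrysin, edgeR called 0 of the 12304 genes (1002 had an unadjusted p under 0.05), limma-voom 0 and DESeq2 2 (0.0163%). Every other edgeR and limma-voom setting that was run also called 0. The genes DESeq2 called were a copy of cortactin, Cttn_1 (log2 -1.30, adjusted p = 0.000676), of whose exon reads 0.0639% were unique to it, and Rgs6 (log2 1.14, adjusted p = 0.0206). Rgs6 averaged 34.9 ± 11.9 CPM in Chrysin, 15.9 ± 2.95 CPM in SU_HX and 77.5 ± 9.64 CPM in CTRL (SD, n = 4 each). Klf15 averaged 40.1 ± 11.99, 24.4 ± 2.35 and 85.5 ± 11.7 CPM in the same order, and Hadh 133 ± 130.1, 52.5 ± 23.1 and 521 ± 40.3 CPM. The comparisons with CTRL share the CTRL rats, so their medians are only set side by side. For fatty acid oxidation the median log2 change was -0.88 in Chrysin over CTRL and -1.44 in SU_HX over CTRL, for oxidative phosphorylation -0.49 and -1.05, for matrix proteins 0.84 and 1.35. It was 1.35 and 1.77 for macrophage markers, for stress genes 1.003 and 1.18, and for the aryl hydrocarbon receptor list 0.78 and 0.72. The medians of Chrysin over CTRL without Chrysin rat 3 were -1.17 for fatty acid oxidation, -0.65 for oxidative phosphorylation, 1.01 for matrix proteins, 1.55 for macrophage markers, 1.15 for stress genes and 0.87 for the receptor list. By rat, the mean of the fatty acid list lay -1.48 to -1.08 log2 from CTRL in Chrysin rats 1, 2 and 4 and -0.29 in Chrysin rat 3, against -1.60 to -1.08 in SU_HX rats 2 to 4 and -2.09 in SU_HX rat 1. That of oxidative phosphorylation lay at -0.86 to -0.54 and, in Chrysin rat 3, 0.03, against -1.37 to -0.41 in SU_HX rats 2 to 4 and -2.20 in SU_HX rat 1. Chrysin rats 1, 2 and 4 and SU_HX rats 2 to 4 overlapped in both lists. For Nppa the fitted log2 difference of Chrysin over SU_HX was -0.11 (SE 0.79), for Postn -0.74 (SE 0.68) and for Cpt1a -0.36 (SE 0.15). None of the 3 was called after adjustment over the 12304 genes, which does not show that the groups were alike.

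**Figure D4:**
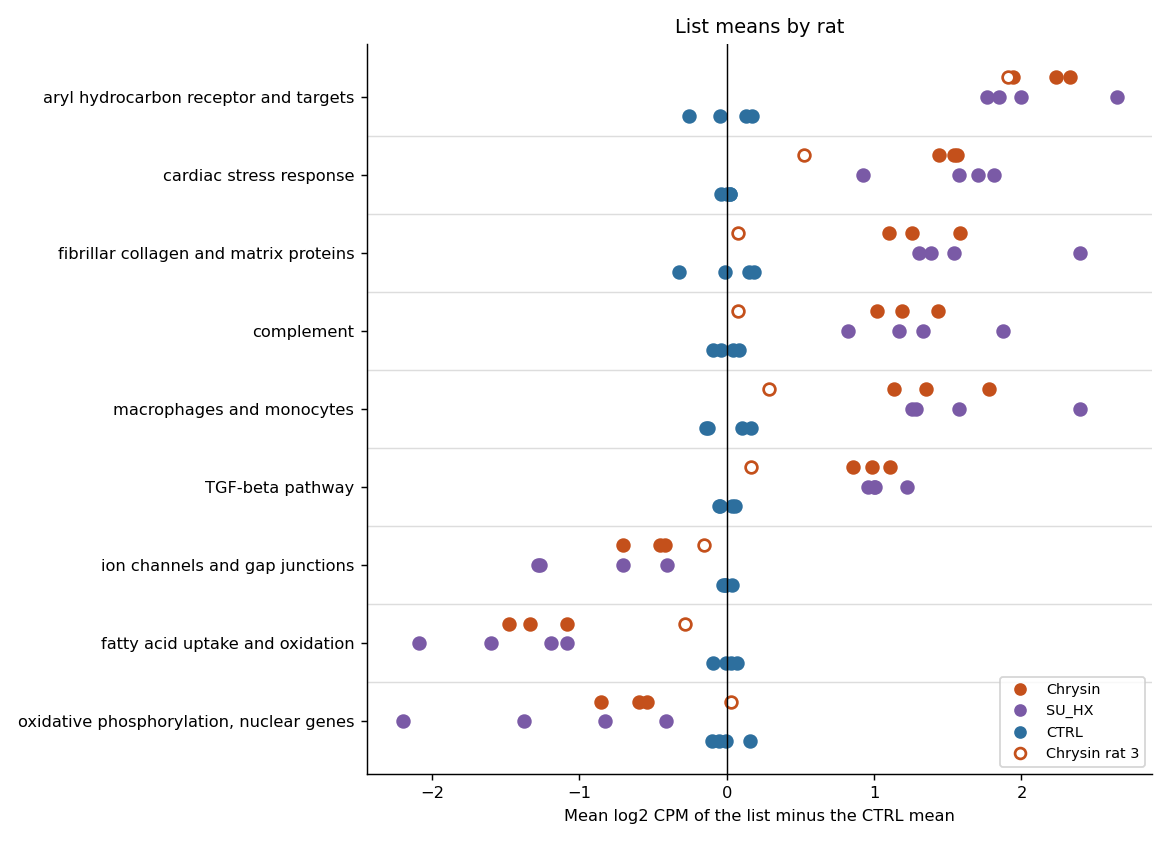
Mean log2 CPM of 9 gene lists per rat, relative to the CTRL mean (horizontal axis), with Chrysin above SU_HX and CTRL within each list; points are rats and the open circle is Chrysin rat 3. Chrysin rat 3 lies at 0.08 for matrix proteins, where the other Chrysin rats lie at 1.10 to 1.58, and at 1.91 for the aryl hydrocarbon receptor list, where they lie at 1.94 to 2.33.

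How far Chrysin rat 3 differed was measured at the genes called when it was left out, so that it had no part in choosing them. At 2077 of those 2092 genes with a value in the full fit, it lay a median of 0.31 log2 from the CTRL mean in the direction of the others, whose median was 1.08. It was beyond all 4 CTRL rats in 63.5% of these genes and on the opposite side of their mean in 16.8%. Per gene, its median distance was 28.3% of that of the others, whose own values had chosen the genes. For stress genes its list mean was 0.52 log2 above CTRL (1.44 to 1.56 in the other 3), for complement 0.08 (1.02 to 1.43) and for fatty acid oxidation -0.29 (-1.48 to -1.08). Its Cyp1a1 and Acta1 values stood with those of the other Chrysin rats, as given above. Its Ahrr and Cyp1b1 values were above every CTRL rat but the lowest of the Chrysin rats, Cyp1b1 by the wider margin.

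**Figure D5:**
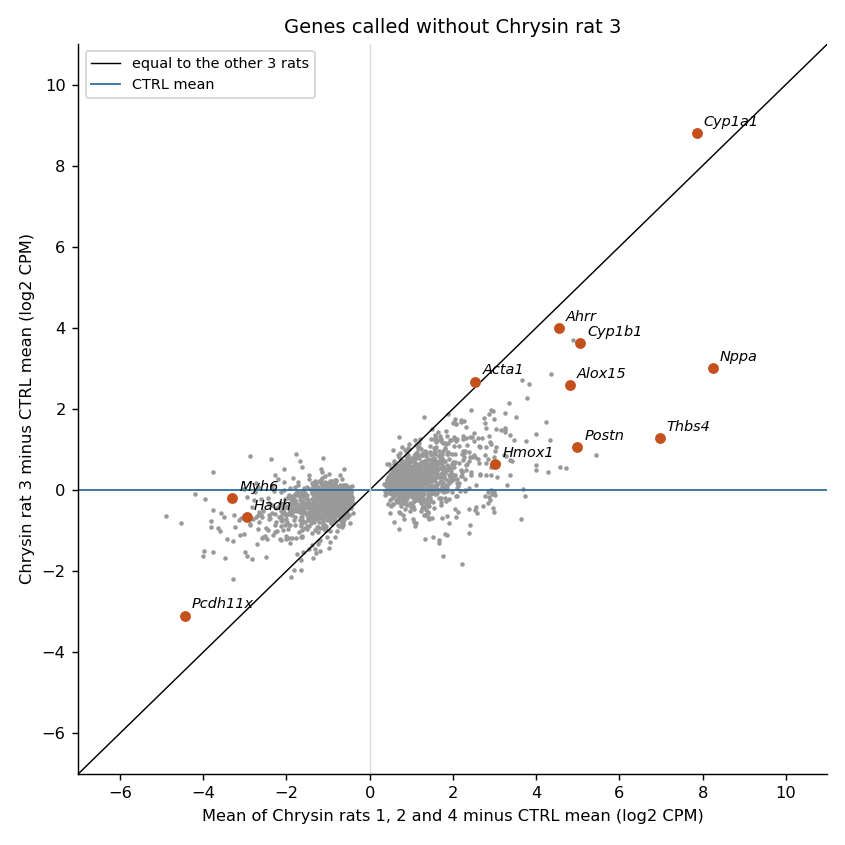
Difference from the CTRL mean in log2 CPM for Chrysin rat 3 (vertical axis) and for the mean of Chrysin rats 1, 2 and 4 (horizontal axis), at 2077 genes called without Chrysin rat 3; the diagonal marks equal values. In the direction of the change, the median distance from CTRL was 0.31 for Chrysin rat 3 and 1.08 for the others.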

How the data were processed

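RNA-seq libraries of rat hearts were analysed from the deposited table, whose "Expression values" columns hold whole-number read counts per gene as the authors made them, per the file headers; aligner, build, annotation, counting rule and use of strand: not given in the sources used here. RNA was prepared with a phenol-based kit and sequenced on an Illumina NextSeq, per the labels' protocols. The deposited fold changes and p-values were not used.

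Counts were filtered with filterByExpr, scaled by TMM and tested with edgeR 4.0.16 (limma 3.58.1, R 4.3.3), by the quasi-likelihood F test on all 12 libraries in 1 fit with Benjamini-Hochberg adjustment over the 12304 genes. A standard error is the size of a log2 change over the root of its F. Means are given with SD over 4 libraries. Library measures were compared by exact permutation. On simulated counts for this comparison (12105 genes, 200 of them changed), the same test recovered 48.0% of 2-fold and 94.9% of 4-fold changes, and 8.97% of its calls were false. No simulated library stood apart as Chrysin rat 3 and SU_HX rat 1 did, so these rates may not hold for the data. No 2 libraries of a group agreed within counting noise (smallest chi-square per degree of freedom 3.17). Alternatives were RLE scaling, other filters, DESeq2 1.42.0, limma-voom with and without quality weights, only Chrysin and CTRL in the fit, a block by replicate number, unique exon reads and leaving out libraries.

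The members, gene lists and tests were chosen with earlier results of these data known. Genes were named by rule: the 12 largest rises and 12 largest falls (official symbol, mean of at least 1 CPM, groups apart), up to 4 members with the smallest p in each list and any direction with 5 or fewer calls, and a preset list. The rule takes 249 genes, of which 134 are named; the other 10 named genes (Ahr, Arnt, Tiparp, Nfe2l2, Ankrd1, Xirp2, Tgfb1, Hbb, Sftpc and Cttn_1) were chosen after their values were seen. Promoters came from RefSeq (GRCr8).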

Additional observations from a re-analysis of the deposited data

Results flagged for a closer look

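Of 86 sets of 4 values examined (each gene given by rat, and 5 library measures, in Chrysin and in CTRL, leaving out sets of 4 zeros), 12 held a value far from the other 3 of its group; chance flags about 1 in 20 such sets. Chrysin rat 3 was that value in 10 of the 12. It was the lowest of the Chrysin rats for total counts (3997306), genes detected (14787), Gclc (27.2 CPM), Hmox1 (14.3 CPM) and Cacna1g (27.7 CPM). It was the highest of them for Myh6 (35113 CPM), Hadh (327 CPM), Decr1 (70.2 CPM), Pde4a (32.1 CPM) and Gabrb2 (5.49 CPM). All 8 of these gene values lay on the CTRL side of the other Chrysin rats. In CTRL, rat 3 was highest for Atp2a2 (17276 CPM) and rat 4 lowest for Hadh (460.6 CPM).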

How the results depend on the processing

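The 1069 genes called between Chrysin and CTRL became 1733 with DESeq2, 4612 with limma-voom and quality weights, 2599 with only Chrysin and CTRL in the fit, and 3564 without Chrysin rat 3 and SU_HX rat 1 together; leaving out 1 library gave 303 to 2092. The 612 genes changed by at least 2-fold became 1264 with limma-voom and quality weights and 1377 without Chrysin rat 3 and SU_HX rat 1 together, and 223 to 1192 with 1 library left out. RLE scaling (1043), limma-voom (1035), a mean of at least 5 CPM (937), no filter (887) and unique exon reads (1055) stayed within 1.5 times. A block by replicate number gave 624. Same-numbered rats did not deviate together (correlations -0.38 to 0.07, and no rat matched its own number best). These values showed no pairing by number and cannot exclude one. Against SU_HX, DESeq2 called 2 genes where edgeR called 0. Of the 1069, 206 were called in every alternative. Of 130 called genes named in the text, 74 were called in every fit that left out 1 library, 56 were lost in at least 1, 4 only in other settings, and 0 changed sign. Those 4, lost in no fit that left out 1 library, were Kcne1, Thbs4, Timp1 and Tceal7, each by limma-voom (adjusted p from 0.051 to 0.166). Depth, 3997306 to 6009798 counts per library, limits genes near 1 CPM most.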

Other observations

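In several smaller gene groups a few genes were called between Chrysin and CTRL hearts (over all genes, 4.72% rose and 3.97% fell). Of 25 tested Wnt genes, 2 rose and 2 fell (5 and 3 without Chrysin rat 3, 5 and 2 without SU_HX rat 1, 1 and 1 across the 7). Nkd2, an inhibitor inside the Wnt pathway, had 22.4, 18.5, 18.7 and 26.1 CPM in Chrysin rats 1 to 4, against 9.55, 10.9, 12.7 and 7.46 CPM in CTRL rats 1 to 4. All 4 Chrysin rats lay above CTRL, rat 3 among them (log2 1.08, SE 0.18, adjusted p = 0.00612). Wnt5a, a ligand that acts without beta-catenin, had 11.2, 7.27, 16.5 and 8.11 CPM in Chrysin rats 1 to 4, against 23.3, 29.2, 34.3 and 24.99 CPM in CTRL rats 1 to 4, with no overlap (log2 -1.40, adjusted p = 0.00847). The secreted Wnt inhibitor Sfrp1 rose (log2 1.84, adjusted p = 0.0281) and the ligand Wnt11 fell (-1.11, 0.0262), but both were lost without any 1 of the 7 (0.0591 to 0.0986 for Wnt11). Of 21 IGF and FGF genes 3 rose and 0 fell (6 without Chrysin rat 3, 5 and 1 without SU_HX rat 1, 1 across the 7). Fgf23, a hormone of phosphate balance made mainly by bone, had 3.46, 1.98, 0.274 and 2.07 CPM in Chrysin rats 1 to 4 and 0 counts in all 4 CTRL rats, at least 13.2-fold higher against 3 counts over the CTRL group (adjusted p = 0.0095). Chrysin rat 3 was at the level of a single count. Ncam1, a neural cell adhesion molecule and the 1 called of 14 Schwann cell and nerve markers (3 without Chrysin rat 3, 2 without SU_HX rat 1 or 2), had 254, 329.8, 25.2 and 297 CPM in Chrysin rats 1 to 4, against 20.4, 17.8, 15.4 and 17.9 CPM in CTRL rats 1 to 4 (log2 3.66, adjusted p = 0.00715), with Chrysin rat 3 just above CTRL.

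Of 22 hypoxia response genes 1 rose, the prolyl hydroxylase subunit of collagen P4ha1 (log2 1.30, adjusted p = 0.00956), with 5 without Chrysin rat 3 and 2 without SU_HX rat 1 or 2. Of 19 iron genes 4 rose, led by a copy of the iron exporter ferroportin, Slc40a1_2 (log2 1.03, adjusted p = 0.00908; 60.4% of its exon reads unique to it), with between 1 and 2 across the 7; 2 fell without SU_HX rat 1 and 1 without SU_HX rat 2 or Chrysin rat 3. Of 20 atrophy and FOXO genes 1 rose and 3 fell, among them the autophagy kinase Ulk1 (log2 -1.04, adjusted p = 0.00911) and the stress sensor Sesn1 (-0.92, 0.0103). Without SU_HX rat 1 these were 2 and 6, and across the 7, 0 and 3. Of 24 immediate early genes 3 rose, led by the bZIP factor Maff (1.01, 0.00998), 5 without Chrysin rat 3 and 1 across the 7; without SU_HX rat 1, 4 rose and 4 fell. The calls of Nkd2, Wnt5a, Fgf23, Ncam1, P4ha1, Slc40a1_2, Ulk1, Sesn1 and Maff were made in all 12 fits that leave out 1 library. Of 31 proteasome genes and 18 clock genes edgeR called 0 (7 and 0 had an unadjusted p under 0.05, and limma-voom and DESeq2 called 0 of each); 2 proteasome genes fell without Chrysin rat 3 and 2 without SU_HX rat 1.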
